A study of Mus musculus with 7 samples.

Results

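The carbonic anhydrase family was examined in cancer-associated fibroblasts (CAFs) from mouse pancreatic tumors. Its members were found by gene symbol, Car followed by a number and, where present, the letter a or b, and 11 such genes stood among the 12771 genes of the count table. The RefSeq gene table for the same genome build lists 16 symbols of this form, and the other 5 (Car5a, Car7, Car8, Car10 and Car14) were not analysed here. The family was selected on the shBrca2 against shControl difference of Car9 and Car12 in these same libraries, so the values of these 2 genes are given as a description with no test. The remaining 9 members were read from the fit over all genes.

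Tumors were grown in the pancreas of C57BL/6 J males aged 8 weeks from KPC cells, a line from a mouse pancreatic cancer, and were taken 2 to 3 weeks after injection. KPC-shBrca2 cells carried a lentiviral short hairpin RNA against Brca2 and KPC-shControl cells a non-targeting hairpin, and both were kept under the same drug selection. The hairpin was in the injected cancer cells of 1 parental line and not in the fibroblasts that were sequenced. Live CD45-/CD31-/EpCAM-/PDPN+ cells were sorted, and the 3′ ends of their poly(A) RNA were counted in 7 libraries, 3 of them shControl (numbered 1, 2 and 4) and 4 of them shBrca2 (numbered 1 to 4), described in the study's methods as separate mice.

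Carbonic anhydrases are zinc enzymes that interconvert carbon dioxide and bicarbonate with release or uptake of a proton. Cytosolic and mitochondrial forms supply bicarbonate and protons to metabolism and to ion transport, while membrane-bound forms with an extracellular active site set pH at the cell surface together with bicarbonate transporters, sodium-proton exchangers and lactate exporters. Car9 and Car12, which encode the transmembrane enzymes CA IX and CA XII, are known for their presence in tumors, and Car9 is a textbook target of the hypoxia-inducible factors (HIFs).

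The promoters of Car9 and Car12 are shown because the report turns on these genes and because HIFs bind a short core motif in DNA. The motif was searched as ACGTG or GCGTG on both strands, which reads CACGT or CACGC on the strand printed. ACGTG also lies within the E-box CACGTG, to which other factors bind. Each window runs from 250 bases before to 50 bases after a transcript start in the RefSeq promoter table on GRCm38.p6, on the plus strand, 5′ to 3′. It is chr4:43506776-43507075 for Car9 and chr9:66713436-66713735 for Car12, and capitals mark a match to the motif. The start in the Car9 window is the first base of the gene, whereas that in the Car12 window (chr9:66713686) lies 1390 bases inside the gene as RefSeq bounds it, and sequence around the outer bound was not searched.
Car9: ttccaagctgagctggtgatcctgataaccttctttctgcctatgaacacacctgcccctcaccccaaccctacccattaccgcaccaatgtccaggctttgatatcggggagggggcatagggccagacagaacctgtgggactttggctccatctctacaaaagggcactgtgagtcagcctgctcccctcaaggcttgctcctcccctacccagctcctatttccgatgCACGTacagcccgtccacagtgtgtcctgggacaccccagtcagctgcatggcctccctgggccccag
Car12: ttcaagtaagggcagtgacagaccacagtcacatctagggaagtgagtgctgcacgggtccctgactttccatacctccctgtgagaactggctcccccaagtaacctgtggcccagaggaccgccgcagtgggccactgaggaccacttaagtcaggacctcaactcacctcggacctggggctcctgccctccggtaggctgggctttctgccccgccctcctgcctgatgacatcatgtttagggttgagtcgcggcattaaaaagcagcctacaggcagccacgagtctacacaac
The Car9 window held 1 match, 18 to 14 bases before the start, and the Car12 window held 0. The RefSeq promoter table holds 8 windows for 7 of the members, and 6 of the 8 held a match, against 14380 of all 32851 windows (43.8%). A match describes these letters and is not a measured binding site.

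Total counts ran from 1898679 to 5990579 per library and overlapped between the groups. Expression below is given as normalized counts, raw counts divided by the DESeq2 size factor of the library, and group values are mean ± SD. Log2 fold changes are shBrca2 over shControl. A gene was called where its Benjamini-Hochberg adjusted p from the DESeq2 likelihood ratio test was under 0.1, its absolute log2 fold change over 0.5 and its mean normalized count over 5. In sorted bulk cells, a change in RNA per cell and a change in the share of cells carrying the RNA cannot be told apart. Fibroblast RNA was abundant in every library: Col1a2, a chain of type I collagen, lay between 34662 and 46334 normalized counts and Pdgfra between 549 and 688. Pdpn, the sorted surface protein, lay between 599.6 and 670.3 in shControl and lower, between 457 and 589.9, in shBrca2, and was not called.

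Of the 9 carbonic anhydrases other than Car9 and Car12, 1 was called higher in shBrca2 CAFs (Car2), 0 were called lower and 8 were not called. Over all genes, 3.77% of the 12768 genes tested were called higher and 5.27% lower. In Car2, and by the choice of the family in Car9 and Car12, every shBrca2 library was above every shControl library, as in 7.78% of all listed genes. A single call among 9 genes is too few to set against these shares. The median log2 fold change was 0.45 over all 11 members and 0.01 over all genes. The member median includes Car9 and Car12, which chose the family, so it is a description and not a test. It also includes Car1 and Car6, with log2 fold changes of 3.57 and 2.16 on at most 7 and 8 raw counts per library. Car11 and Car13 had 0.07 and 0.45, and Car3, Car4, Car5b and Car15 lay below 0. The median thus does not show a shift of the whole family.

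**Figure D1:**
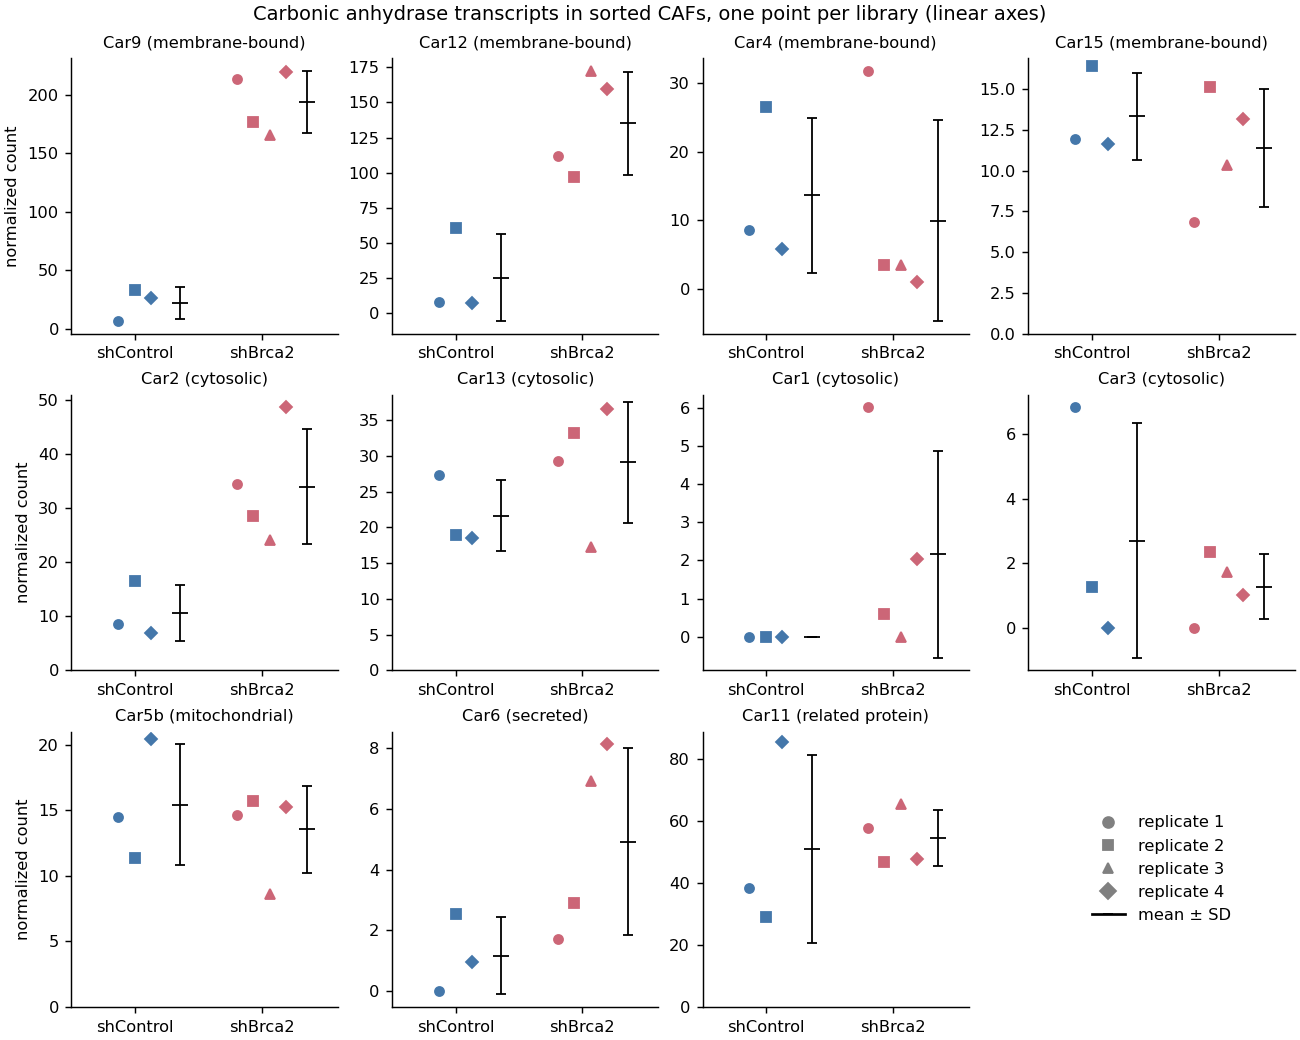
Normalized counts of the 11 carbonic anhydrases in each library, 1 panel per gene, with shControl (3 libraries) and shBrca2 (4 libraries) on the horizontal axis and normalized counts on the vertical axis. Points are libraries and bars are the mean and SD. The groups stand apart in Car9, Car12 and Car2 and overlap in the other 8 members.

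Among the membrane-bound enzymes, Car9 (gene ID 230099, chr4:43507026-43513729) was low in every shControl library and high in every shBrca2 library. Replicates 1, 2 and 4 of shControl held 6.83, 32.9 and 26.3 normalized counts, from raw counts of 8, 26 and 27. Replicates 1 to 4 of shBrca2 held 213, 177, 166 and 219.5, from raw counts of 248, 303, 96 and 216. The lowest shBrca2 library lay well above the highest shControl library, and the shBrca2 libraries were close to each other. The means were 22.0 ± 13.5 (SD, n = 3) and 193.8 ± 26.6 (SD, n = 4), an 8.81-fold difference with a log2 fold change of 3.18 ± 0.351 (SE). Of the exon bases of Car9, 27.5% are shared with an annotated transcript on the opposite strand, Gm12454. The strand setting of the counting was not given in the sources used here, so reads in the shared bases cannot be assigned to 1 gene. How many of the counted reads lie there was not examined.

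Car12 (chr9:66712296-66766845) was also higher in all shBrca2 libraries, but the shControl libraries were far from each other. It had normalized counts of 7.69, 60.7 and 6.81 in replicates 1, 2 and 4 of shControl, against 112, 96.8, 173 and 159.6 in replicates 1 to 4 of shBrca2. shControl replicate 2 stood apart from the other shControl libraries and still lay below the lowest shBrca2 library. The means were 25.1 ± 30.9 (SD, n = 3) and 135.2 ± 36.6 (SD, n = 4), and the fitted difference was a log2 fold change of 2.45 ± 0.847 (SE). The estimate leaned on that 1 library: without shControl replicate 2 the log2 fold change was 4.2, and without shControl replicate 1 or 4 it was 2.01 or 2.00. Leaving out any 1 shBrca2 library gave log2 fold changes from 2.30 to 2.57.

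Car9 and Car12 did not move in a fixed ratio. In shControl libraries the ratio of Car12 to Car9 normalized counts was 1.13, 1.85 and 0.259 in replicates 1, 2 and 4, and in shBrca2 libraries it was 0.524, 0.548, 1.04 and 0.727 in replicates 1 to 4. The ranges overlap, so the ratio did not separate the groups. The Car9 level of shControl replicate 2 was close to that of replicate 4, whereas its Car12 level was well above it.

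The other membrane-bound members were not called. Car4, a lipid-anchored enzyme of capillary and epithelial surfaces, had normalized counts of 8.54, 26.6 and 5.84 in replicates 1, 2 and 4 of shControl, against 31.8, 3.50, 3.45 and 1.02 in replicates 1 to 4 of shBrca2. A single shBrca2 library, replicate 1, was above the highest shControl library, while the other 3 were below every shControl library. The log2 fold change was -0.41, with a 95% interval from -2.18 to 1.36 and a DESeq2 adjusted p of 0.893. Without shBrca2 replicate 1 it was -2.33, with a DESeq2 adjusted p of 0.126. Car15, another lipid-anchored form, averaged 13.4 ± 2.68 normalized counts (SD, n = 3) in the control group against 11.4 ± 3.60 (SD, n = 4) under shBrca2, and its interval ran from -1.15 to 0.77. The Car15 value is uncertain, since 65.7% of its exon bases are shared with the transcript Gm20518 on the same strand.

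Of the cytosolic enzymes, Car2 was the member that rose. It encodes CA II, a widespread and fast form that is abundant in red cells, osteoclasts and ductal epithelium. Car2 (chr3:14886269-14900770) had normalized counts of 8.54, 16.4 and 6.81 in replicates 1, 2 and 4 of shControl, against 34.4, 28.6, 24.2 and 48.8 in replicates 1 to 4 of shBrca2. All 4 shBrca2 libraries were above all 3 shControl libraries, on raw counts of 7 to 13 against 14 to 49. The means were 10.6 ± 5.14 (SD, n = 3) and 34.0 ± 10.7 (SD, n = 4), a 3.21-fold difference. The log2 fold change was 1.73 ± 0.441 (SE), with a DESeq2 adjusted p of 0.00306 over all genes. Car2 stayed called in all 11 alternative settings, with log2 fold changes from 1.5 to 2.15. Some of these calls were near the threshold of 0.1. The DESeq2 adjusted p was 0.0846 with the replicate block and 0.0627 without shControl replicate 1.

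Car2 lies in a run of cytosolic carbonic anhydrase genes on chromosome 3, in the order Car13, Car1, Car3 and Car2. They span 259044 bases (chr3:14641727-14900770) and are the 4 protein-coding genes that RefSeq places there. The neighbours of Car2 were not called. Car13, a cytosolic form of several tissues, averaged 21.6 ± 4.97 normalized counts (SD, n = 3) in the control group against 29.1 ± 8.43 (SD, n = 4) under shBrca2, with a log2 fold change of 0.45, a 95% interval from -0.27 to 1.18 and a DESeq2 adjusted p of 0.593. Car3, the muscle and fat form whose nearest end lies 13887 bases from Car2, had raw counts of 8, 1 and 0 in replicates 1, 2 and 4 of shControl, against 0, 4, 1 and 1 in replicates 1 to 4 of shBrca2. Car1, the red cell and gut form, had 0 raw counts in each shControl library and 7, 1, 0 and 2 in the shBrca2 libraries. Car3 and Car1 were too sparse for a difference to be read at this depth.

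The mitochondrial, secreted and acatalytic members were not called. Car5b, a mitochondrial enzyme, averaged 15.5 ± 4.59 normalized counts (SD, n = 3) in the control group against 13.6 ± 3.32 (SD, n = 4) under shBrca2, with a 95% interval of the log2 fold change from -1.03 to 0.72. Car6, the secreted salivary form, had raw counts of 0, 2 and 1 in replicates 1, 2 and 4 of shControl, against 2, 5, 4 and 8 in replicates 1 to 4 of shBrca2, and its mean normalized count was under the minimum of 5. Car11, a related protein that has lost the residues needed for catalysis, had the most reads of these. It had 38.4, 29.1 and 85.6 normalized counts in shControl and 57.7, 46.6, 65.6 and 47.8 in shBrca2, so shControl libraries lay on both sides of the shBrca2 range. Its log2 fold change was 0.07 ± 0.362 (SE), with a 95% interval from -0.64 to 0.78.

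**Figure D2:**
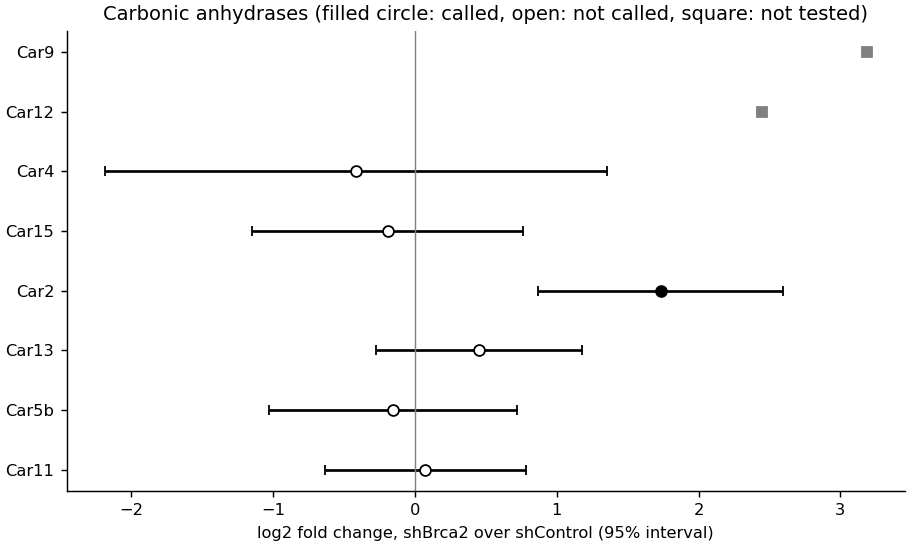
Log2 fold change (shBrca2 over shControl, DESeq2) on the horizontal axis for the 8 carbonic anhydrases with a mean normalized count over 5, with 95% intervals as bars. The interval of Car2 lies above 0 and those of Car4, Car5b, Car11, Car13 and Car15 cross it, while Car9 and Car12 (squares) are plotted as values only.

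The make-up of the family's RNA differed between the groups. The summed normalized counts of the 11 members ran 130.7, 216 and 183 over replicates 1, 2 and 4 of shControl, against 508, 422, 477 and 553 over replicates 1 to 4 of shBrca2. Car9 and Car12 together took 11.1%, 43.3% and 18.1% of that sum in shControl and 64.1%, 64.8%, 71.0% and 68.6% in shBrca2. Since these 2 genes chose the family, the shift is a description. Without them the sums were 129.6 ± 17.8 (SD, n = 3) and 160.8 ± 20.8 (SD, n = 4), and the ranges of the groups overlapped. Without Car2 as well they were 119.0 ± 20.8 and 126.8 ± 14.9. The summed values of the remaining 8 members thus overlapped, from 106 to 143 in shControl and from 114 to 148 in shBrca2.

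Genes whose pattern over the 7 libraries was most like that of Car9 or Car12 were found among 6732 genes with a mean normalized count of at least 50. Likeness was measured as the mean absolute gap between the centred log2(normalized count + 1) values of the 2 genes, so smaller is more alike. Car9 and Car12 were chosen for their group difference, so genes near them tend to carry that difference by construction. For Car9 the nearest included Egln3 (gap 0.31), Calca (0.44), Cldn3 (0.51) and Cxadr (0.57), all higher in every shBrca2 library. Egln3 encodes a prolyl hydroxylase that marks HIF proteins for degradation, Calca the peptides calcitonin and CGRP, Cldn3 an epithelial claudin and Cxadr a junction protein that is also a virus receptor. For Car12 the nearest were Tnfrsf9 (0.34), Ptprn (0.52), Slc16a3 (0.56), Nt5e (0.56) and Egln3 (0.56). Tnfrsf9 encodes the costimulatory receptor 4-1BB, Ptprn a protein of dense-core vesicles, Slc16a3 the lactate exporter MCT4 and Nt5e the enzyme CD73, which forms adenosine. The gap between Car9 and Car12 was 0.67, larger than the gaps of these genes.

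Of the 5 genes nearest to Car12, 4 shared the high value of shControl replicate 2, and the exception was Egln3, where that library (101 normalized counts) was close to shControl replicate 4 (81.7). In that library Tnfrsf9 had 45.5 normalized counts against 7.69 and 5.84 in shControl replicates 1 and 4, and Ptprn had 578 against 129.0 and 119.7. Slc16a3 had 1121 against 137 and 255, and Nt5e had 87.3 against 28.2 and 24.3. In each of these 4 genes the library stood above the other shControl libraries and below all shBrca2 libraries. They were picked for likeness to Car12, so the shared high library is part of what chose them.

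Partners of the carbonic anhydrases in pH control were read from lists of bicarbonate transporters, sodium-proton exchangers, monocarboxylate transporters, acid sensors and receptor phosphatases with a carbonic anhydrase-like domain. Of their 35 genes 19 were in the table, and 0 of these were called higher and 1 lower. Over all genes tested, 3.77% were called higher and 5.27% lower, and 1 call among 19 genes is too few to set against these shares. The median log2 fold change of the 19 partners was 0.18, against 0.01 over all genes. The gene called lower was Slc4a3, the chloride-bicarbonate exchanger AE3, with normalized counts of 150.3, 150.5 and 170.2 in replicates 1, 2 and 4 of shControl, against 86.9, 92.7, 138 and 93.5 in replicates 1 to 4 of shBrca2. All shBrca2 libraries were below all shControl libraries. It fell by 0.64 on the log2 scale (SE 0.217, DESeq2 adjusted p 0.0488), but the call was lost when shControl replicate 1 or 4 or shBrca2 replicate 1, 2 or 4 was left out, with DESeq2 adjusted p up to 0.318.

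Slc16a3, the exporter that carries lactate and protons out of glycolytic cells, was not called. It had normalized counts of 137, 1121 and 255 in replicates 1, 2 and 4 of shControl, against 1598, 1421, 1128 and 1216 in replicates 1 to 4 of shBrca2. shControl replicate 2 nearly reached the lowest shBrca2 library. Its log2 fold change was 1.41 ± 0.734 (SE) with a DESeq2 adjusted p of 0.326. Without that library it was 2.78 and past the call thresholds. Leaving out any other library gave 0.96 to 1.48 and no call, with DESeq2 adjusted p from 0.393 to 0.729. The call thus rests on leaving out that 1 library. Of the exon bases of Slc16a3, 44.1% are shared with transcripts on the opposite strand. Its chaperone Bsg (basigin) had a log2 fold change of 0.40 ± 0.199 (SE, adjusted p 0.261). The bicarbonate carriers Slc4a2 and Slc4a4 had 0.18 and -0.01. These genes were not called.

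**Figure D3:**
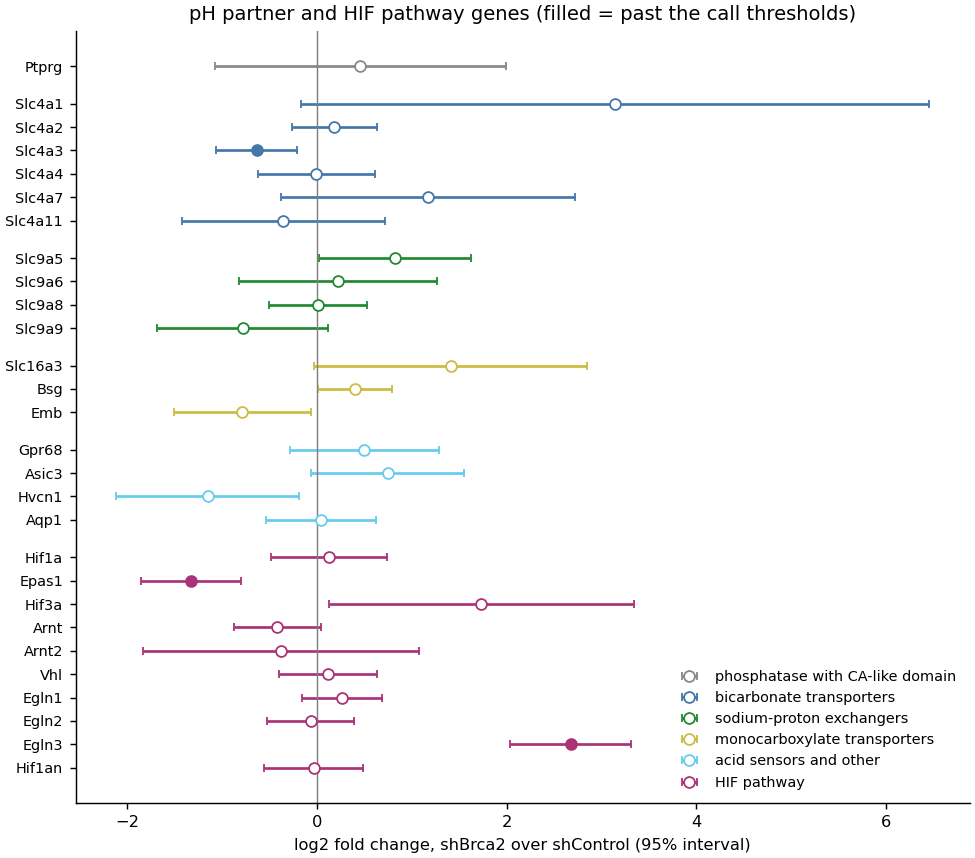
Log2 fold change (shBrca2 over shControl, DESeq2) of pH partner genes and of the HIF pathway genes in the table, with 95% intervals as bars and filled points for called genes. Among the partners Slc4a3 lies below 0 and is called, and among the HIF genes Egln3 lies far above 0 and Epas1 below it.

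The HIF pathway list, which holds the factors, their hydroxylases and the degradation machinery, had all 10 of its genes in the table. Of these, 1 was called higher and 1 lower, and the median log2 fold change was 0.04. The shares over all genes tested were 3.77% higher and 5.27% lower, and 10 genes are too few to set against them. Egln3 had normalized counts of 30.8, 101 and 81.7 in replicates 1, 2 and 4 of shControl, against 541, 338, 504 and 418 in replicates 1 to 4 of shBrca2. It rose by a log2 fold change of 2.67 ± 0.327 (SE, DESeq2 adjusted p 5.3e-11). Egln3 was also the gene nearest to Car9 above, by a measure that follows the same group difference. Epas1, which encodes HIF-2α, had 485, 484.5 and 664 normalized counts in shControl and 169, 268, 295 and 140.3 in shBrca2. It dropped by 1.33 on the log2 scale (SE 0.270, DESeq2 adjusted p 6.99e-05). Hif1a, which encodes HIF-1α, had a log2 fold change of 0.12 ± 0.312 (SE, DESeq2 adjusted p 0.91). The calls of Egln3 and Epas1 held in all 11 alternative settings, and HIF protein was not measured here.

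Carbonic anhydrases are also genes of other cell types, so marker lists of those cells were read beside them. The summed epithelial markers (8 of 12 in the table) ran from 414 to 1166 normalized counts in shControl and from 1472 to 2083 in shBrca2. Of the 8, 5 were called higher (Krt7, Krt8, Krt18, Krt19 and Elf3), with log2 fold changes from 0.996 to 3.41. The share called higher over all genes tested was 3.77%, which applies to the erythroid list below as well. Muc1 and Cldn7 overlapped between the groups and were not called (log2 fold changes 0.015 and 0.58). Krt19 is also on the mesothelial list below. Most of the epithelial sum was keratin RNA, with shBrca2 means of 161.4, 400.6, 570.1 and 591.6 normalized counts for Krt7, Krt8, Krt18 and Krt19. Whether this keratin RNA came from epithelial or mesothelial cells was not tested. Epcam was not analysed here, and the defining junction gene Cdh1 was low, with 1 to 17 raw counts per library. Cdh1 was above all shControl libraries in every shBrca2 library, with means of 4.01 ± 2.83 (SD, n = 3) and 11.4 ± 5.31 (SD, n = 4) normalized counts, but was not called (log2 fold change 1.59 ± 0.713 (SE), DESeq2 adjusted p 0.189). Elf3 had similarly low raw counts, 0 to 3 per shControl library and 2 to 23 per shBrca2 library. Like Car9, Car12 and Car2, the epithelial sum was higher in every shBrca2 library than in any shControl library. In replicates 1, 2 and 4 of shControl the epithelial sum was 414, 803 and 1166. Over the same libraries Car9 had 6.83, 32.9 and 26.3 normalized counts, Car12 7.69, 60.7 and 6.81, and Car2 8.54, 16.45 and 6.81. These are 3 libraries with few raw counts (7 to 13 for Car2), so no relation was read from their order. The erythroid sum (4 of 10 in the table) ran from 5.98 to 14.6 in shControl and from 51.9 to 108 in shBrca2, with 1 called higher, Alas2, the haem synthesis enzyme of red cells. The erythroid factor Klf1 had 1 to 9 raw counts per library, and the haemoglobin genes were not analysed here. The erythroid sum too was higher in every shBrca2 library than in any shControl library. Alas2 alone held 44.9 to 85.2 normalized counts per shBrca2 library. Slc4a1, Klf1 and Epor overlapped between the groups and were not called. In replicates 1, 2 and 4 of shControl the erythroid sum was 5.98, 8.855 and 14.6, and its order was not read against Car2 either. The part of epithelial or red cell RNA in the carbonic anhydrase differences was not tested.

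Other lists moved less or the other way. The macrophage sum (5 of 8 in the table) ran from 257 to 294 in shControl and from 399 to 421 in shBrca2, with 2 genes called higher. These were Csf1r, with means of 112.5 and 248.2, and C1qa, whose groups overlapped on 2 to 39 raw counts per library. C1qb, Cd68 and Lyz2 overlapped between the groups and were not called, with log2 fold changes of 0.69, -0.32 and -0.26. The higher sum thus lay mainly in Csf1r and was not shared by the list. The mesothelial sum overlapped between the groups (1414 to 4266 against 3508 to 4459). Of its 11 genes 2 were called higher, Ezr and Krt19, and Krt19 is also on the epithelial list. Msln was above all shControl libraries in every shBrca2 library, with means of 337.7 and 626.7. It was not called (log2 fold change 0.89, DESeq2 adjusted p 0.438). The endothelial sum overlapped as well (66.6 to 115 against 81.2 to 111.0), with 0 of 3 called. Its genes differed in direction. Pecam1 and Tek had log2 fold changes of -3.60 and -1.55, on 0 to 14 and 4 to 33 raw counts per library, and Kdr had 0.52. The sum of the 10 fibroblast markers ran from 125620 to 144438 in shControl and from 100464 to 120032 in shBrca2, with Dcn and Lum, both proteoglycans of the matrix, called lower. The adipocyte sum, of a cell type that carries Car3, overlapped too (110 to 262 against 160.1 to 207, 2 of 8 in the table, Pparg called lower). The skeletal muscle sum was 104 to 118 in shControl and 73.2 to 102 in shBrca2, with 0 of 4 called. The acinar sum overlapped (144 to 218 against 98.1 to 161). Of its 6 genes, 2 were called lower (Cpa1 and Prss2), on 1 to 18 and 3 to 46 raw counts per library, and Cela1 was called higher. Over all genes tested, 5.27% were called lower and 3.77% higher. The median log2 fold change of the acinar genes was -1.95. The glial sum overlapped (64.5 to 138 against 67.1 to 131), with 0 of 3 called. The parts of these lists in the carbonic anhydrase differences were not tested either.

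**Figure D4:**
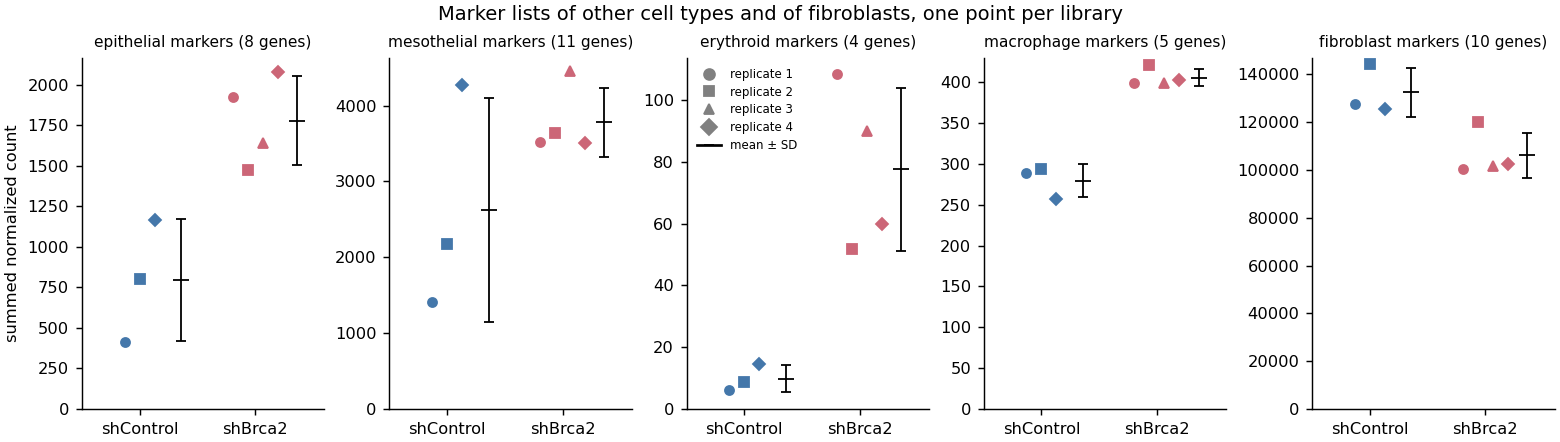
Summed normalized counts of marker lists of fibroblasts and of other cell types in each library, with the groups on the horizontal axis and the sum on the vertical axis of each panel. The epithelial, erythroid and macrophage sums of the 4 shBrca2 libraries lie above those of the 3 shControl libraries, the fibroblast sum lies below, and the mesothelial sum overlaps. Points are libraries and bars are the mean ± SD.

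**Figure D5:**
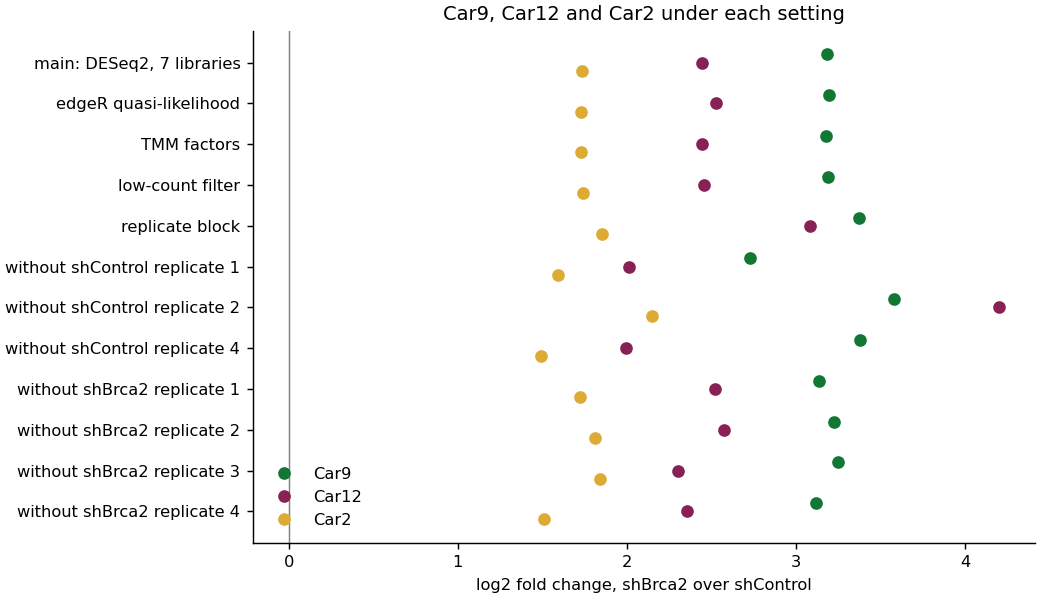
Log2 fold change (horizontal axis, shBrca2 over shControl) of Car9, Car12 and Car2 under the DESeq2 fit of all 7 libraries and each alternative setting (vertical axis). Car9 lies between 2.73 and 3.58 and Car2 between 1.5 and 2.15 in every setting, whereas Car12 lies between 2.00 and 4.2.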

How the data were processed

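Sorted CAFs were profiled by a 3′-end variant of MARS-seq. The authors deposited raw counts per gene symbol, whole numbers with no normalization. The submitters' processing notes name bcl2fastq, cutadapt, STAR 2.4.2a, HTSeq, DESeq2 and mm10. The annotation, strand setting and handling of molecular identifiers were not given in the sources used here, so counts may include PCR copies and intervals cover only the spread between these libraries. The smallest highest count of a listed gene was 6. Groups came from the Brca2 status in the labels. The lowest mean chi-square per gene over the 21 pairs of libraries was 3.16, so no pair was counted as 1 sample.

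The counts were fitted with DESeq2 1.42.0 (R 4.3.3), its default size factors and the likelihood ratio test for group that the study's methods name, over all 7 libraries with no covariate. Adjusted p-values are over 12768 genes, and 3 genes had none. 95% intervals are the estimate ± 1.96 SE. Alternatives were edgeR 4.0.16 (quasi-likelihood, TMM), TMM factors in DESeq2, a filter of at least 10 counts in 3 libraries, a replicate block and leaving out each library. The code was tested on simulated data.

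The members, the gene lists and the rule for named genes were chosen with earlier results of these data known. All members are named, with called genes of the partner and HIF lists and genes among the 5 most like Car9 and Car12. Results for a few items are not reported here. A few other listed genes were named after their values were seen. Coordinates, gene IDs and promoters are from RefSeq on GRCm38.p6, the assembly of mm10. Shared exon bases are from GENCODE vM39.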

Additional observations from a re-analysis of the deposited data

Results flagged for a closer look

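In 13 values examined for a library far from the rest of its group, 2 members stood out, both within the 4 shBrca2 libraries. Car4 had 31.8 normalized counts in shBrca2 replicate 1, and the gap to the next library was 0.92 of the whole range of the group, above the 95% critical value of Dixon's test. Car5b had 8.64 normalized counts in shBrca2 replicate 3, the library with the fewest counts in all, and the gap was 0.844 of the range. By construction chance alone marks about 5% of groups.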

How the results depend on the processing

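Car9 and Car12 were recomputed as values only, with log2 fold changes from 2.73 to 3.58 and from 2.00 to 4.2 over the 11 alternatives. Of the 86 recomputed log2 fold changes of the other members, 67 kept their direction and their side of the threshold, 12 kept their direction but received no adjusted p and so have no side of it, and 7 turned sign, none of them of a called gene. Car2 was called in all 11. The signs that turned were of Car3 (1.14 without shControl replicate 1, range over left-out libraries -1.77 to 1.14), Car4 (0.49 without shControl replicate 2, range -2.33 to 0.49), Car11 (-0.11 and -0.20 without shControl replicates 1 and 2, -0.02 without shBrca2 replicate 3, range -0.20 to 0.66) and Car5b (0.09 without shControl replicate 4, range -0.32 to 0.09, and 0.012 with the replicate block). The low-count filter removed Car1, Car3 and Car6, and Car1, at 0 in all shControl libraries, was left out of the recomputed fold changes. The number of genes called among all tested was 1154, against 615 to 1305 when 1 library was left out. With replicate number as a block 491 genes were called, Car2 among them. The number of pH partners called was 1, 0 with the block and 0 to 7 when 1 library was left out, the 7 without shControl replicate 2. Same-numbered libraries did not deviate together (correlations from -0.10 to -0.07 over 3 pairs) and share only a number. The cause of these moves was not tested. Low counts limit Car1, Car3 and Car6, whose differences are not detectable at this depth.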
